A study of Mus musculus with 33 samples.

Results

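RNA-seq was analysed for Hp1β/γ Δ/Δ embryonic stem cells (ESCs), which lack HP1β and HP1γ and keep HP1α, against *wild-type* ESCs. The libraries were chosen by the deposited table that pairs these genotypes, and they are 6 of the 33 libraries of the series, with 3 Hp1β/γ Δ/Δ libraries and 3 *wild-type* libraries, here called *wild-type* set B. All 55487 genes of the table entered, and 16263 had enough counts to be tested. Every library was made from mouse ESCs of strain C57BL/6, and neither group carries a treatment in the labels. The mutations were made with CRISPR/Cas9 in ESCs cultured on feeder fibroblasts, and clones were picked one by one and screened by PCR. The authors call the 3 libraries of a genotype biological replicates. Whether these come from separate cultures or from 1 clone is not given in the sources used here. The p-values therefore measure the spread between these libraries, which may not include that between cultures or clones. A further 12 libraries were used for comparison, 3 each of Hp1β Δ/Δ ESCs, Hp1γ Δ/Δ ESCs, Hp1α/γ Δ/Δ ESCs and a second *wild-type* set (set A). The single mutants were deposited beside set A and the Hp1α/γ Δ/Δ ESCs beside set B. Below, the double mutant is the one that lacks HP1β and HP1γ, and the others are called the Hp1β, Hp1γ and Hp1α/γ mutants.

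HP1 proteins bind histone H3 methylated at lysine 9, the mark of constitutive heterochromatin, through their chromodomain, and they recruit further silencing factors through their chromoshadow domain. In ESCs this mark covers satellite repeats, endogenous retroviruses and clusters of repeated genes. A small fraction of ESCs in normal culture passes through a state that resembles the 2-cell embryo, in which the transcription factor Dux and the genes it activates (*Zscan4*, *Usp17l*, *Tdpoz*, *Zfp352* and others) are transcribed.

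Total counts ran from 20227691 to 25743149 in the 6 libraries. Levels are given as CPM, the share of a library's counts that a gene takes after TMM scaling of the libraries, and they compare libraries, not genes, since they are not divided by gene length. The double-mutant libraries held 23721 to 24108 genes with at least 1 count, above the 22459 to 22711 genes of set B. Log-scale correlations between replicates were 0.9908 to 0.9915 in the double mutant and 0.9901 to 0.9905 in set B. The summed level of 7 ESC markers, including *Pou5f1* and *Nanog*, was 3343.7 ± 54.5 CPM (SD, n = 3) in the double mutant and 3192.3 ± 58.5 CPM (SD, n = 3) in set B, although most genes of a longer pluripotency list, described with the pluripotency genes, were lower in the double mutant. Fibroblast markers, which feeder cells would bring, went both ways. The summed level of 12 of them was 74.5 ± 2.2 CPM (SD, n = 3) in the double mutant and 89.3 ± 5.9 CPM (SD, n = 3) in set B. A longer list of 21, which also holds contractile and further matrix genes, summed to 249.1 ± 6.5 CPM (SD, n = 3) and 171.2 ± 11.5 CPM (SD, n = 3). The part of feeder cells in the results was not tested.

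The targeted genes were lower in every mutant library. *Cbx1* encodes HP1β and lies on chromosome 11 (GRCm38, 96789127 to 96808640, plus strand). It had 394, 357 and 372 CPM in the set B libraries and 66.2, 65.4 and 67.6 CPM in the double-mutant libraries. *Cbx3* encodes HP1γ and lies on chromosome 6 (51470360 to 51483704, plus strand). Its levels were 193, 150 and 169 CPM in set B and 65.6, 61.1 and 64.6 CPM in the double mutant. The groups did not overlap for either gene, and the log2 fold changes were −2.51 for *Cbx1* (standard error 0.048, adjusted p = 3.91e-15) and −1.43 for *Cbx3* (standard error 0.072, adjusted p = 2.58e-10). Counts cover the whole gene, the exons outside the deletion included, so RNA that remains does not measure protein. *Cbx5* encodes HP1α, the member left in these cells, and lies on chromosome 15 (103191544 to 103239816, minus strand). Its levels were 459, 428 and 421 CPM in set B and 445, 455 and 439 CPM in the double mutant, and these overlapped. The log2 fold change of *Cbx5* was 0.02 (standard error 0.043, adjusted p = 0.732).

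In the double mutant 1929 of the 16263 genes tested were deregulated (11.9%), where deregulated means past 0.05 in the Benjamini-Hochberg adjusted p of edgeR's quasi-likelihood test and past 1 in absolute log2 fold change. Up-regulated genes numbered 1191 (7.32%) and down-regulated genes 738 (4.54%). The numbers were 632 and 507 when every library had to hold 10 counts, and 4224 and 4184 at the adjusted p without the fold threshold. The 3 mutant libraries lay all above or all below the 3 *wild-type* libraries for 1905 of the 1929 genes. The up-regulated genes had the larger changes, with a median absolute log2 fold change of 1.83 and 531 genes changed over 4-fold, against a median of 1.37 and 123 such genes among the down-regulated. When set A replaced set B as the control, 1629 genes were up-regulated (9.89%) and 1255 down-regulated (7.62%). Genes up-regulated against both controls numbered 1025, which is 86.1% of the set B calls and 62.9% of the set A calls. For down-regulated genes the number was 531, which is 72% of the set B calls and 42.3% of the set A calls.

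The calls were also counted by level in *wild-type* ESCs. Of the 912 tested genes under 0.5 CPM in set B, 510 were up-regulated and 3 down-regulated, but a gene at this level entered the test mostly through its counts in the mutant, so this count is a description. Between 0.5 and 5 CPM the numbers were balanced, with 452 up-regulated and 456 down-regulated of 4309 genes. Between 5 and 50 CPM they were 205 and 226 of 6861, and at 50 CPM or more 24 and 53 of 4181. Of the up-regulated genes, 42.8% lay under 0.5 CPM in set B, and 100 of them had no count in any set B library. The plot of mean levels shows these genes as a column at its left edge.

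**Figure D1:**
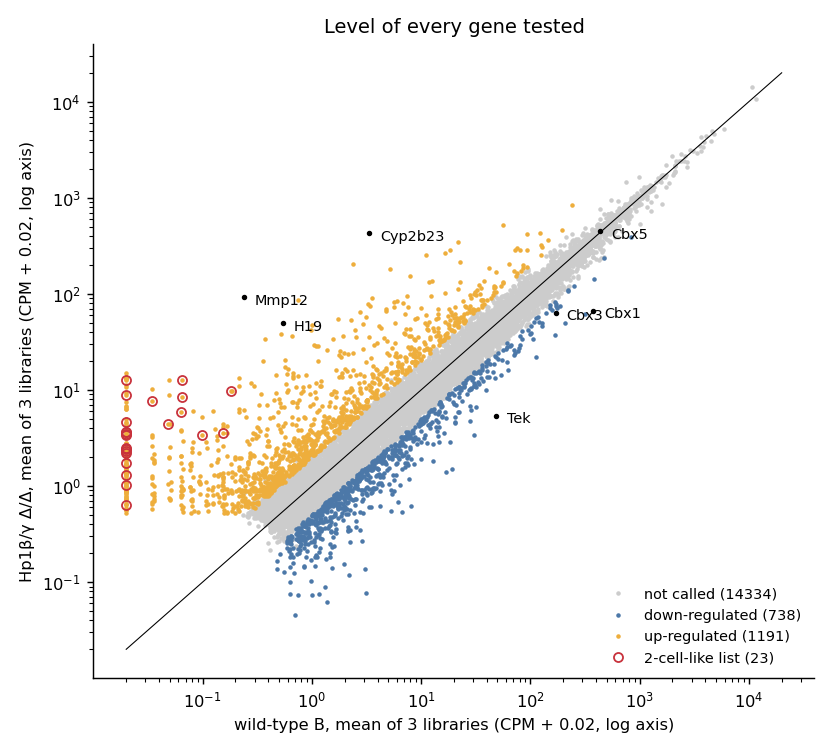
Mean level of each tested gene in wild-type set B (x axis) and in Hp1β/γ Δ/Δ ESCs (y axis), both in CPM on log axes with a small offset that lets genes at 0 be drawn. Grey points are the genes that were not called, yellow the 1191 up-regulated, blue the 738 down-regulated, and red rings the 23 tested members of the 2-cell-like list, which lie at the left edge and above the diagonal.

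The genes of the 2-cell-like state stood out by their size of change. The list held 28 genes, of which 27 were in the table and 23 were tested. All 23 tested members were up-regulated and 15 of them had no count in set B. These 23 passed the filter on low counts through the mutant libraries alone, so their count is no measure of how often the list responded. Summed over the 27 genes, the level was 0.476, 0.429 and 0.79 CPM in the set B libraries and 110.7, 111.4 and 113.3 CPM in the double-mutant libraries. This sum was 0.0896 to 0.328 CPM in set A, 0.57 to 0.793 CPM in the Hp1β mutant, 1.2 to 1.44 CPM in the Hp1γ mutant and 2.26 to 2.71 CPM in the Hp1α/γ mutant. Every double-mutant library thus lay far above the 15 other libraries. Bulk RNA cannot tell more cells in this state from more RNA per cell. The 4 members outside the test were low in the mutant too. They include *Duxf3* (chromosome 10, 58229979 to 58232675), the gene of Dux itself in this annotation, which had 0.596, 0.759 and 0.228 CPM in the double mutant and no count in set B. *Tdpoz3*, *Gm2022* and *Tmem92* had at most 0.759 CPM.

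Several of these genes exist as near-identical copies, and the promoters of 3 *Zscan4* copies are shown because reads of such copies cannot always be told apart and because the copies moved together. The sequences are from RefSeq (GRCm38.p6), 5′ to 3′ in the direction of transcription, from 250 bases before the start of the gene to 50 bases after it, and capitals mark the word TATAAA.
Zscan4c, chr7:11005495-11005794, plus strand: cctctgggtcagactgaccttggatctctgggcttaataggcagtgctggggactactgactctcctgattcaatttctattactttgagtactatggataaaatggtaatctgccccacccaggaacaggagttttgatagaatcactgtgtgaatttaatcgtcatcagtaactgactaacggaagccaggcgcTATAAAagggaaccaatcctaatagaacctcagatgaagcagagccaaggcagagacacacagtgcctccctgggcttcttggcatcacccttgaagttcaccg
Zscan4d, chr7:11166099-11166398, minus strand: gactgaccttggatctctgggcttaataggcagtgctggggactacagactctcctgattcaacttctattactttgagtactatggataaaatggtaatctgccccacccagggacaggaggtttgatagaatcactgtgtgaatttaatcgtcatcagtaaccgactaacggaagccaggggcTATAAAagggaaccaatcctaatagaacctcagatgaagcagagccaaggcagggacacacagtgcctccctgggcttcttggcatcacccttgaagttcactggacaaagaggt
Zscan4f, chr7:11397665-11397964, plus strand: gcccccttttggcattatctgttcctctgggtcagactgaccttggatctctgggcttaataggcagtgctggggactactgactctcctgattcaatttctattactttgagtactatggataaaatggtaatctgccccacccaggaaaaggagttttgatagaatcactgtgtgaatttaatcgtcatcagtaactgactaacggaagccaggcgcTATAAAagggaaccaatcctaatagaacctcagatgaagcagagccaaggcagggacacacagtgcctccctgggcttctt
The word begins at position −54 in *Zscan4c*, −65 in *Zscan4d* and −31 in *Zscan4f*, counted from the annotated start, so the annotated starts of the copies are set at different bases of one repeated sequence. After a shift of 23 bases *Zscan4c* and *Zscan4f* shared 275 of 277 bases (99.3%), and after a shift of 11 bases *Zscan4c* and *Zscan4d* shared 281 of 289 (97.2%).

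*Zscan4* genes encode zinc finger proteins with a SCAN domain that act at telomeres and mark the 2-cell-like state. *Zscan4f* had no count in set B and 13, 12.3 and 12.6 CPM in the double mutant, at least 90-fold higher (against a floor of 3 counts in each library). *Zscan4c* rose from 0.0476, 0.0429 and 0.0439 CPM to 8.51, 7.72 and 9.04 CPM, and *Zscan4d*, with 1 count in set B, reached 6.55, 7.89 and 8.47 CPM. Because reads may be shared out between copies, the family was also summed. The 9 *Zscan4* genes together had 0.285, 0.172 and 0.571 CPM in set B and 54.5, 50.7 and 57.3 CPM in the double mutant, a ratio of 158 between the means. In the Hp1α/γ mutant their sum was 1.29 ± 0.19 CPM (SD, n = 3), in the Hp1γ mutant 0.449 ± 0.0472 CPM (SD, n = 3) and in the Hp1β mutant 0.0953 ± 0.0529 CPM (SD, n = 3).

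The sums of the other multicopy families of this state behaved alike. The 5 *Usp17l* genes, which encode deubiquitinases, summed to 30.8, 32 and 29.7 CPM in the double mutant and to 0.0476, 0.214 and 0.0878 CPM in set B. The 11 *Tdpoz* and *Spopfm* genes of chromosome 3, which encode proteins with TRAF and POZ domains, reached 37.7, 36.2 and 31.1 CPM and held 1 count in set B. The 4 genes related to *Pramef25* reached 32, 28.9 and 33.8 CPM and had no count in set B, which makes them at least 225-fold higher. *Tcstv1*, *Tcstv3* and *Gm20767* summed to 13.5, 14.9 and 13.1 CPM with 1 count in set B, and the 4 genes related to the translation factor *Eif1a* to 6.08, 7.93 and 8.89 CPM, at least 54.5-fold above set B. *Zfp352*, a zinc finger gene, had 3.91, 3.71 and 3.23 CPM and no count in set B. *Sp110*, a nuclear body gene, went from 0.143, 0.0429 and 0.22 CPM to 3.36, 4.18 and 3.19 CPM (log2 fold change 4.67, standard error 0.353). These family sums reached at most 1.51 CPM in the libraries of the single mutants, the Hp1α/γ mutant or the *wild-type* sets. A separate list of 9 *Tdpoz* genes had 8 tested. Of these, 7 were up-regulated, beside 7.32% of all genes, but they had no count in set B and entered the test through the mutant. The remaining tested gene is not in the sum above and had a log2 fold change of 0.65 without a call. Compared directly with the Hp1α/γ mutant, 1 gene of this list was lower in the double mutant.

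**Figure D2:**
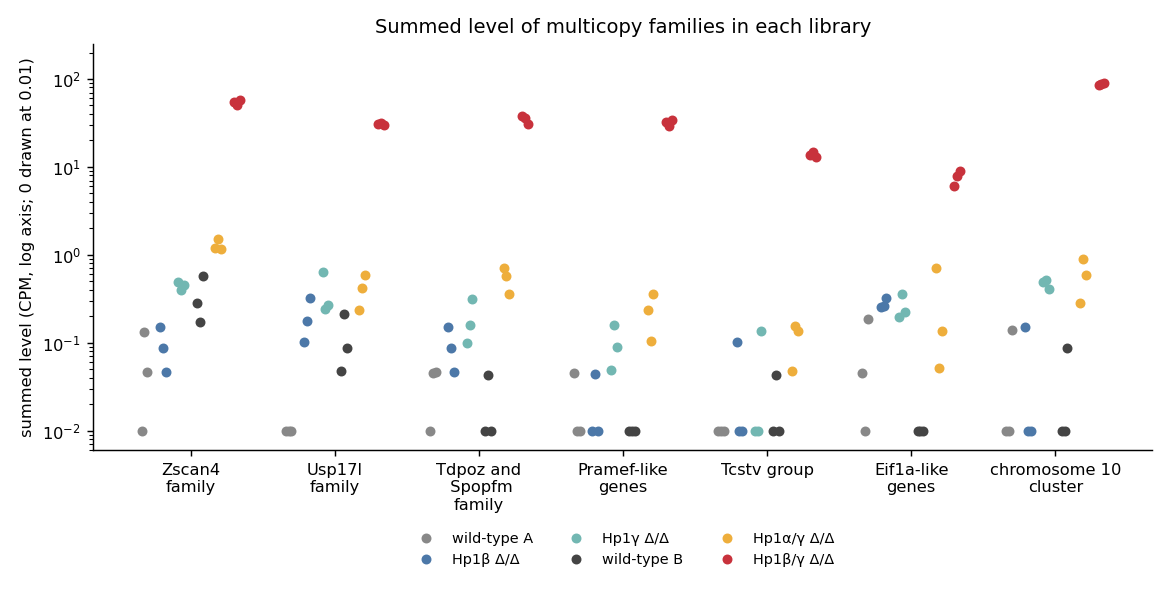
Summed level of 7 multicopy families (x axis) in each library (y axis, CPM, log axis, with 0 drawn at the bottom). Each point is 1 library and colours are the 6 groups, and the 3 red points of Hp1β/γ Δ/Δ ESCs lie above all other points in every family.

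A repeated cluster on chromosome 10 that the list did not hold also rose. Its 7 protein-coding genes, from *Gm21293* to *Gm4340*, lie on the plus strand from 104142987 to 104196522 (GRCm38), with starts 8509 or 8510 bases apart, and the deposited annotation describes them as relatives of RNA and export factor-binding protein 2. Promoters were held for 6 of the 7, and any pair of these shared 299 or 300 of 300 bases. The 2 versions of the sequence are printed to show how alike the copies are, with the word GATTNAATC in capitals.
Gm21293, chr10:104142737-104143036, plus strand: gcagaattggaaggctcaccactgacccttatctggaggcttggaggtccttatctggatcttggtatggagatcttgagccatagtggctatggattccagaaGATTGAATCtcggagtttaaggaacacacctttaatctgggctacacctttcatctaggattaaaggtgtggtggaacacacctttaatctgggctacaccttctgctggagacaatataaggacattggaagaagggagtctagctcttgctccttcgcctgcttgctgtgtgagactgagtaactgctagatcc
Gm21312, chr10:104176774-104177073, plus strand: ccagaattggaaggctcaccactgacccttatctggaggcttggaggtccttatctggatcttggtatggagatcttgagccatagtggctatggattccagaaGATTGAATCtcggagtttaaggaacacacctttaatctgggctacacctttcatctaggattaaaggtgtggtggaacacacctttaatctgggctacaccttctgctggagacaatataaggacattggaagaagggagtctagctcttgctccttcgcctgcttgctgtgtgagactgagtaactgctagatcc
They differ at 1 of their 300 bases. Summed over the 7 genes the level was 85.8, 88.1 and 89.9 CPM in the double mutant, from 6474 counts in the 3 libraries, against 2 counts in the 3 libraries of set B. Single copies varied between libraries far more than the sum did: *Gm20765* had 5.74, 14.6 and 17.9 CPM and *Gm21304* 18.9, 9.7 and 10.6 CPM. The sum is therefore the firmer value, and *Gm21293* also overlaps *Gm6763*. *Gm21293* itself had 14, 19.4 and 11.3 CPM and no count in set B, at least 106-fold higher.

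The naming rule gave as the 12 largest rises *Gm21293*, *Gm13696*, *Gm21312*, *Gm6763*, *Gm21304*, *Zscan4f*, *Gm8764*, *Gm13040*, *Gm4340*, *Pramef25*, *BC080695* and *Gm21542*. All 12 had no count in set B, so their order rests on fitted values and is not a measured one, and they were at least 48.6-fold to at least 106-fold higher. *Gm13696*, a protein-coding gene of chromosome 2 (83973123 to 83975615), had 14.4, 12.7 and 14.1 CPM. *Gm21542*, a processed pseudogene of chromosome 19, had 6.68, 7.17 and 6.61 CPM.

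Beyond this group, some genes rose to far higher levels, and those named here were chosen after their values were seen. *Cyp2b23*, a cytochrome P450 gene of chromosome 7 (26665227 to 26686437), went from 4.38, 2.92 and 2.72 CPM in set B to 426, 422 and 433 CPM. On the log2 scale this is a rise of 6.99 (adjusted p = 1.45e-16, standard error 0.093). It was also above *wild-type* in the other mutants, at 17.4 to 18.8 CPM in the Hp1β mutant, 32.7 to 36.2 CPM in the Hp1γ mutant and 70.2 to 86.1 CPM in the Hp1α/γ mutant. *Mmp12*, which encodes macrophage metalloelastase, behaved differently. It had 0.0951, 0.214 and 0.351 CPM in set B and 94.5, 89.4 and 91.5 CPM in the double mutant, but stayed between 0.394 and 1.58 CPM in the single mutants and the Hp1α/γ mutant. *Rpl39l*, a paralog of a ribosomal protein gene that is used in testis, had 0.951, 0.557 and 0.659 CPM in set B and 82.3, 86.8 and 90.4 CPM in the double mutant. The Hp1α/γ mutant had 30 to 57.5 CPM of it.

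Among the down-regulated genes the largest falls by the naming rule included *Gna14*, *Pclo*, *Pla2g4a*, *Khdc3*, *Ddx60*, *Kdr*, *Tek*, *Pirt*, *Insm1*, *Heph* and *Neurod1*. *Gna14* encodes a G protein alpha subunit and fell from 7.32, 8.83 and 7.99 CPM to 0.553, 0.633 and 0.608 CPM (log2 fold change −3.76, standard error 0.186, adjusted p = 2.24e-10). *Khdc3*, a maternal-effect gene of the oocyte's subcortical complex that ESCs also express, fell from 18.3, 15.9 and 17 CPM to 1.28, 1.35 and 1.48 CPM (log2 fold change −3.65). *Tek* and *Kdr* encode the receptors of angiopoietin and VEGF. *Tek* had 49.4, 47.8 and 49.8 CPM in set B and 6, 4.72 and 5.32 CPM in the double mutant, and *Kdr* had a log2 fold change of −3.24. *Insm1* and *Neurod1*, transcription factor genes of neuroendocrine cells, had log2 fold changes of −2.78 and −2.71.

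These 11 genes did not move alike in the other mutants, as the plot of their levels shows. *Pla2g4a*, the gene of a cytosolic phospholipase, had 4.6 to 7.67 CPM in the single mutants, near its 5.29 to 7.68 CPM in set A, but 0.338 to 0.836 CPM in the double mutant. *Pclo*, the gene of a presynaptic scaffold protein, was low in every mutant, with 2.68 to 4.56 CPM in the single mutants against 18.1 to 19.6 CPM in set A. *Khdc3* was low in both single mutants too, at 3.42 to 9 CPM, whereas the Hp1α/γ mutant had 14.7 to 27.4 CPM.

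**Figure D3:**
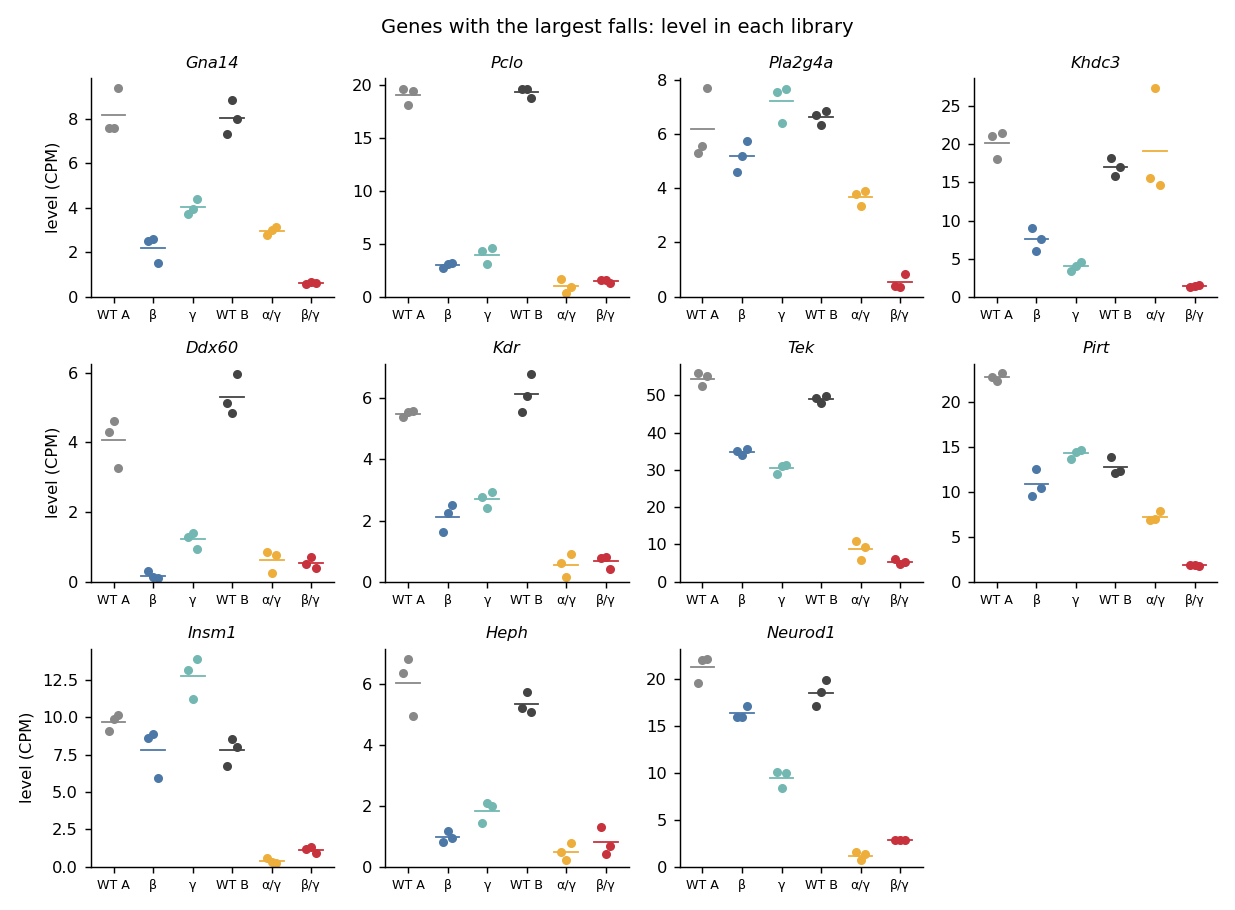
Level of 11 genes with the largest falls in each library (y axis, CPM, from 0), with 1 panel for each gene and 6 groups on the x axis (wild-type sets A and B, and the mutants by the HP1 proteins they lack). Points are libraries and bars their means, and in each panel the Hp1β/γ Δ/Δ points lie below those of wild-type set B.

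Genes of the H3K9 methylation machinery stayed under the fold threshold. None of the 6 H3K9 methyltransferase genes, 19 cofactor genes, 10 demethylase genes and 14 genes of the PRC1.6 repressor tested was called, although 4, 9, 7 and 9 of them passed the adjusted p alone. Of all tested genes 11.9% were called and 51.7% passed the adjusted p. Their median log2 fold changes were −0.16, 0.01, −0.20 and −0.07, against 0.005 over all genes tested. *Setdb1* had 180, 174 and 178 CPM in set B and 166, 161 and 164 CPM in the double mutant, with no overlap (log2 fold change −0.13, standard error 0.043, adjusted p = 0.0184). *Ehmt1* and *Ehmt2*, which encode a pair of partner enzymes, had log2 fold changes of −0.42 and −0.46, both past the adjusted p but not the fold threshold. *Wiz*, a zinc finger partner of that pair, lay at 0.81, the highest of the cofactors, and *Adnp*, a subunit of a complex with HP1, at −0.77, the lowest. Of 8 genes of DNA methylation and its removal, 1 was called. *Tet1*, the main oxidase of 5-methylcytosine in ESCs, fell from 842, 843 and 836 CPM to 390, 399 and 374 CPM (log2 fold change −1.13, adjusted p = 4.43e-12).

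Pluripotency genes remained expressed and shifted downwards by small amounts. Of 24 core and naive pluripotency genes, 19 were lower and 2 higher at the adjusted p alone (which 25.7% and 26% of all tested genes also passed), and the median log2 fold change of the list was −0.43. Past the fold threshold there was 1 gene, *Nr0b1*, which encodes the nuclear receptor DAX1 and had 53.4, 56.9 and 53.8 CPM in set B and 20.4, 19.7 and 20.7 CPM in the double mutant (log2 fold change −1.45). *Pou5f1*, the gene of OCT4, had 762, 774 and 742 CPM in set B and 674, 693 and 723 CPM in the double mutant (log2 fold change −0.14, standard error 0.038, adjusted p = 0.00663). *Sox2* went the same way, from 375, 373 and 368 CPM to 239, 244 and 244 CPM (log2 fold change −0.63). *Nanog* went the other way, from 191, 189 and 203 CPM to 266, 256 and 268 CPM (log2 fold change 0.42). *Tdgf1*, the gene of the Nodal co-receptor, lay higher as well (log2 fold change 0.72). Among 14 genes of formative and primed pluripotency, *Fgf5* was up-regulated (log2 fold change 1.6) and *Cdh2* and *Sox4* were down-regulated (−1.23 and −1.03), the call of *Sox4* being lost against set A and without replicate 2 of the double mutant (−0.99).

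Several genes of trophoblast and of simple epithelium were up-regulated. Of 15 trophoblast genes tested, 7 were up-regulated and 1 was down-regulated, beside 7.32% and 4.54% of all genes tested, with a median log2 fold change of 0.82. *Cdx2*, the trophectoderm transcription factor, rose from 0.0951, 0.0857 and 0.22 CPM to 0.936, 0.759 and 1.56 CPM. *Krt8* and *Krt18* encode the paired keratins of simple epithelia. *Krt8* rose from 91.5, 95.5 and 93 CPM to 414, 416 and 428 CPM (log2 fold change 2.15, standard error 0.044, adjusted p = 6.64e-15), and *Krt18* from 70.5, 72.5 and 76.5 CPM to 288, 281 and 285 CPM (log2 fold change 1.95). *Hand1*, *Esx1*, *Gata2* and *Wnt7b* had log2 fold changes of 1.84, 1.79, 1.68 and 1.33, and *Ascl2*, a maternally expressed gene of the placenta, had −1.27. The Hp1β mutant had 198 to 240 CPM of *Krt8* against 54.4 to 56.6 CPM in set A, and 10 of the trophoblast genes were up-regulated there, beside 2.75% of all genes tested. In the Hp1γ mutant 1 was, beside 2.04%.

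Several genes of the Nodal, BMP and Wnt pathways and of early mesoderm were up-regulated too. Of 18 pathway genes tested 8 were up-regulated and none down-regulated (median log2 fold change 0.75), beside 7.32% and 4.54% of all genes. Ligand genes among these were *Wnt4*, *Wnt3*, *Wnt7b* and *Nodal*, with log2 fold changes of 2.71, 2.35, 1.33 and 1.05. *Wnt3* had 1.85, 1.59 and 1.45 CPM in set B and 7.66, 8.39 and 9.11 CPM in the double mutant. *Axin2* and *Sp5*, targets of canonical Wnt signalling, had 1.63 and 1.56, and *Id3*, a BMP target, had 1.81. *T*, the Brachyury gene, rose from 0.38, 0.6 and 0.439 CPM to 5.36, 5.82 and 6.27 CPM (log2 fold change 3.58, standard error 0.216), the largest change of both lists. In the mesoderm list 5 of 10 genes tested were up-regulated (*T*, *Msx1*, *Hand1*, *Msx2* and *Mixl1*) and *Kdr* fell. In the Hp1β mutant 9 genes of the pathway list were up-regulated and none down-regulated, and 4 and 1 of the mesoderm list. Of all genes tested there, 2.75% were up-regulated and 6.36% down-regulated. In the Hp1γ mutant the numbers were 2 and none of the pathway list and 1 and 1 of the mesoderm list, beside 2.04% and 3.55% of all genes. In the list of 12 primitive endoderm genes tested, *Lama1*, a basement membrane laminin, fell from 107, 118 and 113 CPM to 22.4, 21.9 and 22.4 CPM (log2 fold change −2.36) and *Cubn* fell to 0.17 to 0.253 CPM (−2.51). No gene of that list was called in the other direction. At the adjusted p alone 5 were higher, with log2 fold changes of at most 0.90, beside 26% of all genes. Of 9 neural genes, 2 were higher and 5 lower at the adjusted p alone, beside 26% and 25.7% of all genes. Their median log2 fold change was −0.50. *Nes* was up-regulated (1.08). *Ncam1* lay at the fold threshold (−1.01), and its call was lost with 10 counts required in every library, without replicate 1 or 3 of the double mutant (−0.97 and −0.98) and without replicate 2 or 3 of set B (−0.93 without replicate 2).

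Germline genes moved in both directions. Of 28 tested, 9 were up-regulated and 4 were down-regulated, beside 7.32% and 4.54% of all genes, and the median log2 fold change was −0.05. *Mov10l1*, the RNA helicase of piRNA production, rose from 2.19, 1.89 and 1.54 CPM to 15 CPM in each library (log2 fold change 2.99). *Sycp2*, a subunit of the synaptonemal complex, had 0.904, 0.386 and 0.22 CPM in set B and 7.19, 6.41 and 6.08 CPM in the double mutant (log2 fold change 3.70). *Tex101* and *Mael*, a surface protein gene of germ cells and a gene of transposon silencing, had log2 fold changes of 3.37 and 2.27. *Stra8*, the gatekeeper of meiotic entry, fell from 2.09, 2.27 and 2.06 CPM to 0.51, 0.127 and 0.418 CPM (log2 fold change −2.60). It lay at 9.54 to 12.4 CPM in the Hp1γ mutant, above all *wild-type* libraries. *Sycp1* and *Hormad1*, also genes of meiosis, fell as well (−1.08 and −1.23), as did *Taf7l* (−1.34).

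Of 31 imprinted genes tested, 8 were down-regulated and 1 was up-regulated, beside 4.54% and 7.32% of all genes. At the adjusted p alone 11 were lower and 13 higher, beside 25.7% and 26% of all genes, and the median log2 fold change was 0.15. The one up-regulated was *H19*, a maternally expressed long non-coding RNA of chromosome 7 (142575529 to 142578143, minus strand). It had 0.666, 0.214 and 0.703 CPM in set B and 47.6, 50.7 and 49.9 CPM in the double mutant (log2 fold change 6.54, standard error 0.148, adjusted p = 2.14e-14). Its level was 6.34 to 8.69 CPM in the Hp1β mutant, 2.49 to 3.25 CPM in the Hp1γ mutant and 9.89 to 12.8 CPM in the Hp1α/γ mutant, in no case overlapping a *wild-type* set. *Peg13* and *Nnat*, paternally expressed genes, fell to 0.038 to 0.0851 CPM (log2 fold change −4.27) and to 3.72 to 6.04 CPM (−2.60). *Grb10* fell from 375, 380 and 390 CPM to 147, 143 and 143 CPM (−1.42). The neighbours *Zim1* and *Usp29*, of one imprinted domain, had −1.18 and −1.16, and *Peg3* of the same domain had 487, 466 and 458 CPM in set B and 242, 241 and 230 CPM in the double mutant.

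Calls in lists of stress and structure are to be read beside the 7.32% up-regulated and 4.54% down-regulated of all genes. Counts at the adjusted p alone are to be read beside the 26% higher and 25.7% lower of all genes. Of 19 p53 target genes 12 were higher at the adjusted p and none lower. In that list 3 were up-regulated (*Btg2*, *Perp* and *Plk2*, log2 fold changes 1.33, 1.32 and 1.18, the call of *Plk2* being lost against set A). Of 15 BCL2 family genes 10 were higher and 3 lower at the adjusted p, with a median log2 fold change of 0.25. The only call among them was *Hrk*, which was down-regulated (−1.24). Of 17 interferon response genes 3 rose and 3 fell. *Ifit2* fell to 0.464 to 0.57 CPM (−2.54) while *Isg15* rose to 1.27 to 1.44 CPM (1.95). *Tagln* and *Acta1* were the called genes among 15 actin and contractile genes. *Tagln*, an actin-binding gene that fibroblasts also express, rose from 30, 28.6 and 34 CPM to 102, 105 and 109 CPM (log2 fold change 1.76). It is 1 of 18 tested genes of the longer fibroblast list, of which *Col5a1* and *Col6a1* were up-regulated too (1.15 and 1.10) and *Loxl1* and *Fbln2* down-regulated (−1.31 and −1.03, the call of *Loxl1* being lost against set A). The collagen genes *Col1a1* and *Col1a2* had −0.48 and −0.92, past the adjusted p alone. Of 33 collagen genes tested, 8 rose and 3 fell. Of 62 zinc finger genes named *Zfp900* to *Zfp999*, 4 were up-regulated and none was down-regulated, with 20 higher and 5 lower at the adjusted p, but the calls of *Zfp978* and *Zfp986* were lost against set A. *Zfp985* had 12.6, 11.8 and 13.3 CPM in set B and 144, 131 and 133 CPM in the double mutant (log2 fold change 3.42), and 137 to 154 CPM in the Hp1α/γ mutant. Of 23 genes of hypoxia and glycolysis, 18 were lower and 1 higher at the adjusted p, with a median log2 fold change of −0.39. Those called were *Ndufa4l2* and *Bnip3*, which fell (−1.44 and −1.02). Both were already lower in set A than in set B, and against set A they had 0.066 and −0.40. The call of *Bnip3* was also lost without replicate 1 of set B (−0.97).

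**Figure D4:**
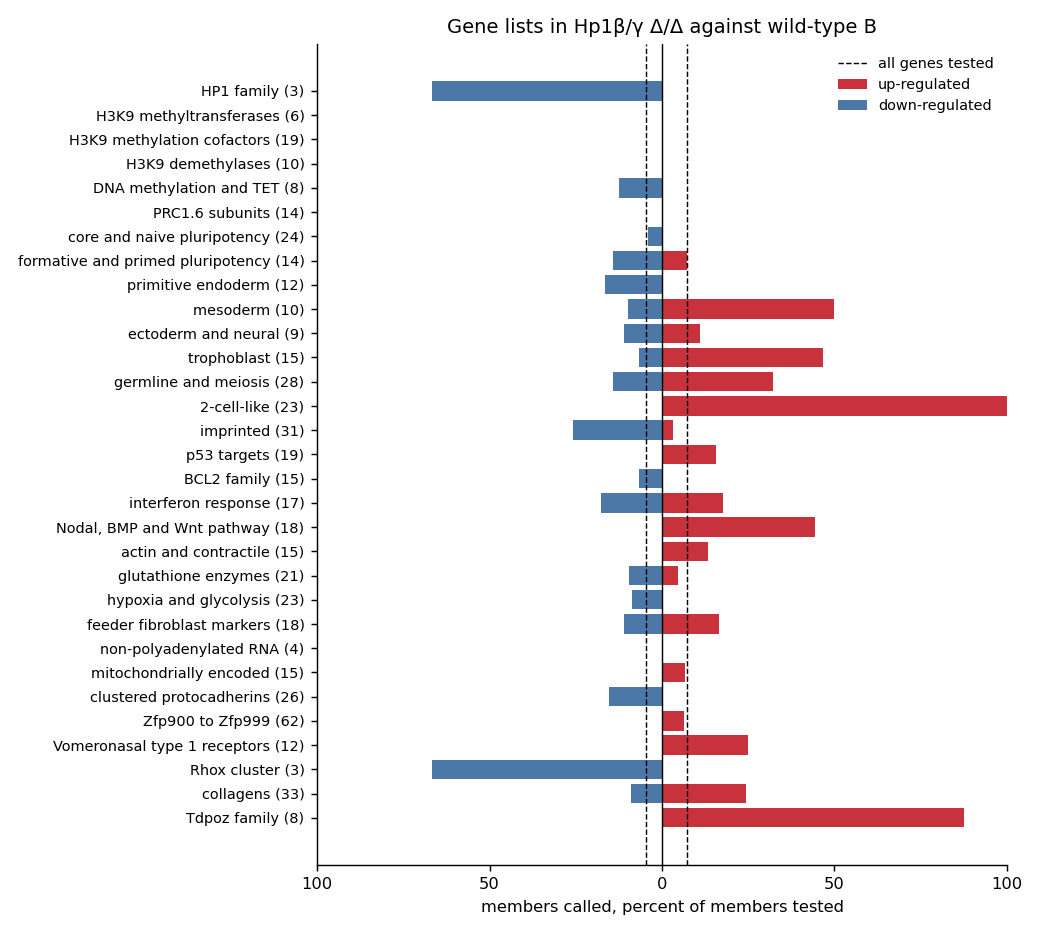
Share of the tested members of each gene list (y axis, number tested in brackets) that were up-regulated (red, to the right) or down-regulated (blue, to the left) in Hp1β/γ Δ/Δ ESCs against wild-type set B, in percent. Dashed lines mark 7.32% up-regulated and 4.54% down-regulated among all tested genes, and the 2-cell-like and Tdpoz bars rest on genes that entered the test through the mutant libraries.

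Features that the comparison did not use were set beside the calls, as a description, since many up-regulated genes entered the test through their counts in the mutant. Of 422 lincRNA genes tested 24.4% were up-regulated, of 412 processed pseudogenes 21.8%, of 90 unprocessed pseudogenes 32.2% and of 14223 protein-coding genes 5.67%. The shares down-regulated were 5.69%, 3.4%, 1.11% and 4.49%. Up-regulated genes often lay close together: 322 of the 1189 with a position (27.1%) had another up-regulated gene within 100 kb, as did 13.2% of all genes tested. For down-regulated genes the shares were 17.2% and 11.9%. Promoters from RefSeq were matched to 11674 of the tested genes by symbol. A promoter of 300 bases held a median of 8 CpG in the 652 up-regulated genes, 11 in the 487 down-regulated and 21 in the 10535 called in neither direction.

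Short words were searched on both strands of these promoters. GATTNAATC, where N is any base, is the core of a longer word that Dux is known to bind and reads the same on both strands. It was in 9 promoters of up-regulated genes (1.38%), in none of the down-regulated and in 23 of all 11674 (0.197%). The 9 genes are 6 copies of the cluster on chromosome 10 printed above, *Gm13040*, *Gm13057* and *Eif4a3l1*, so most of these 9 matches are copies of one sequence. The longer word was in 0.0257% of all promoters and in none of the up-regulated genes. TATAAA, which reads TTTATA on the other strand, was in 12.9% of promoters of up-regulated and 11.7% of down-regulated genes, against 7.37% of all. CACGTG, an E-box that reads the same on both strands and that Myc-like factors and the PRC1.6 subunit Mga can bind, was in 7.06% and 7.39%, against 9.82% of all.

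Genes of chromosome 16 lay lower as a group. The median log2 fold change of its 470 tested genes was −0.44, and 83.4% were below 0, whereas the medians of the other autosomes and X ran from −0.07 to 0.06. On chromosome 16, 43 genes were down-regulated (9.15%) and 20 up-regulated. The shift ran along the whole chromosome, since in 10 equal groups of its genes by position the medians ran from −0.54 to −0.36. Against their own controls, the medians of chromosome 16 were −0.30 in the Hp1β mutant, −0.51 in the Hp1γ mutant and −0.45 in the Hp1α/γ mutant, and −0.06 in set B against set A. The number of copies of this chromosome was not measured, and its part in these falls was not tested. Without chromosome 16, 695 genes were down-regulated and 1171 up-regulated.

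**Figure D5:**
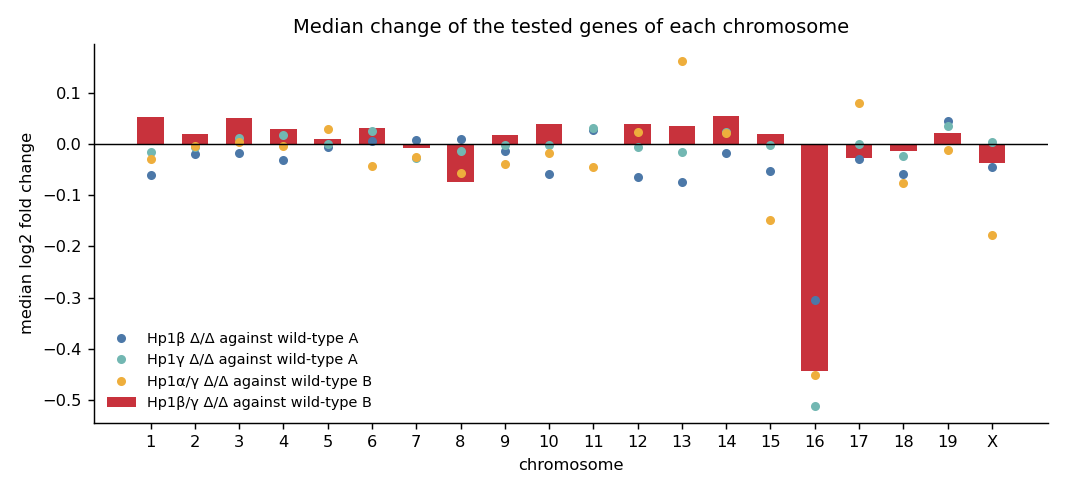
Median log2 fold change (y axis) of the tested genes of each autosome and X (x axis). Bars are Hp1β/γ Δ/Δ ESCs against wild-type set B and points the other mutants against their own controls, and chromosome 16 is low in each mutant, at −0.44 in Hp1β/γ Δ/Δ ESCs.

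Whether the double loss departed from the sum of the single losses was tested over 15 libraries. Against set A, 9.1% of genes were deregulated in the Hp1β mutant (2.75% up-regulated, 6.36% down-regulated) and 5.59% in the Hp1γ mutant (2.04% and 3.55%). In the test of the double loss each mutant was set against the *wild-type* set of its own table. The contrast is the log2 fold change in the double mutant minus the sum of those in the Hp1β and the Hp1γ mutant. Of 17277 genes tested, 1775 lay above that sum (10.3%) and 813 below it (4.71%). A gene above the sum need not have risen, since it may have fallen less than its summed falls in the single mutants. A shift that all these mutants share enters the sum through both single mutants, so it appears in the contrast with its sign reversed. The lower medians of chromosome 16 are such a shift, and their part in these numbers was not tested. Of 30 clustered protocadherin genes in this test 10 lay above the sum, but none was up-regulated in the double mutant. By the naming rule the 5 largest estimates above the sum were *Gm13696*, *Gm13040*, *Gm15398*, *Gm13193* and *Zscan4-ps2*, and below it *Gm20762*, *Gm45351*, *Nnat*, *Pla2g4a* and *Scn3a*. Where *wild-type* or single mutant libraries hold hardly any counts, the size of the estimate has no meaning, so levels are given. Of the 2-cell-like list 1 gene of 23 passed this test, although all 3 double-mutant libraries lay above all other libraries in the list's sum. *Gm15398*, *Gm13193* and *Gm20762* had at most 0.281 CPM in any library of set A and the single mutants but 4.33, 0.686 and 25.5 CPM in replicate 2 of set B, so for them the *wild-type* sets differ and the contrast does not isolate the mutations.

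Among genes whose 15 libraries each held 10 counts or more, a condition chosen after the values were seen, the largest departures can be read from levels. *Gm44660*, a gene of chromosome 7 still to be characterised, had 3.54 to 5.61 CPM in the single mutants and 3.85 to 5.39 CPM in set A, but 100, 88.9 and 85.1 CPM in the double mutant against 2.9 to 4.28 CPM in set B. *Ltb*, which encodes lymphotoxin beta, was down-regulated in both single mutants (1.12 to 1.84 CPM against 2.67 to 3.9 CPM in set A) and up-regulated in the double mutant (18.1, 19.4 and 20.9 CPM against 2.83 to 3.47 CPM). *Ccdc158* and the lincRNA *C78283* had the same pattern. In the other direction, *Nnat* had 30 to 41 CPM in the single mutants, above set A at 22.5 to 23.8 CPM, and 3.72 to 6.04 CPM in the double mutant, below set B at 26.4 to 30.1 CPM. The contrast for *Nnat* was −3.81 (standard error 0.202, adjusted p = 2.48e-11). By contrast *H19*, *Cyp2b23* and *Zfp985* were up-regulated in each of the 3 mutants, and the contrasts were −1.12, 0.53 and −0.27, with adjusted p-values of 0.215, 0.124 and 0.401.

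The Hp1α/γ mutant also lacks HP1γ but keeps HP1β. Both double mutants share set B as the control, so they were compared with each other directly. Against set B, 1069 genes were up-regulated and 2588 down-regulated in the Hp1α/γ mutant, so a difference below can come from either mutant. Of 16210 genes tested, 2830 were higher in the double mutant (17.5%) and 1041 lower (6.42%). Replicate 2 of the Hp1α/γ mutant stood apart from the other 2 (correlations between replicates of 0.9693 to 0.991), and without it the numbers were 3100 and 1109. The deleted genes went opposite ways: *Cbx1* was lower in the double mutant (log2 difference −2.41) and *Cbx5*, with 178, 81 and 177 CPM in the Hp1α/γ mutant, was higher (1.64, standard error 0.301, adjusted p = 0.00444). All 23 tested genes of the 2-cell-like list were higher in the double mutant. With a list sum of 2.26 to 2.71 CPM in the Hp1α/γ mutant, they entered this test mostly through the double-mutant libraries. Their count is therefore no measure of how often the list differed. *Krt8* had 17.9, 25.1 and 18.6 CPM in the Hp1α/γ mutant, below both *wild-type* sets, and the log2 difference between the mutants was 4.39. *Wnt3* had 0.0477, 0.104 and 0.0903 CPM there, a log2 difference of 6.64. The Nodal, BMP and Wnt pathway list as a whole was split. Of its 18 genes tested, 7 were higher and 4 lower in the double mutant than in the Hp1α/γ mutant, beside 17.5% and 6.42% of all genes. In the Hp1α/γ mutant against set B, 6 genes of that list were up-regulated and 4 down-regulated. Of 24 pluripotency genes, 16 were lower in the double mutant than in the Hp1α/γ mutant and none was higher. Against set B, 10 genes of this list were up-regulated and none down-regulated in the Hp1α/γ mutant, whereas 1 was down-regulated in the double mutant. The summed ESC markers were 6188.6 ± 1184 CPM (SD, n = 3) in the Hp1α/γ mutant. Fibroblast markers were lower there than in the double mutant and both *wild-type* sets. The 12 summed to 26.05 ± 0.57 CPM (SD, n = 3) and the longer list of 21 to 60.15 ± 2.18 CPM (SD, n = 3). Of 16 genes of the longer list tested, 11 were higher in the double mutant and none lower, beside 17.5% and 6.42% of all genes. The part of feeder cells in the differences between these mutants was not tested. *Khdc3* was lower in the double mutant as well (−3.76). *Zfp985*, at 137 to 154 CPM in the Hp1α/γ mutant, had a log2 difference of −0.09 (standard error 0.1, adjusted p = 0.517) and overlapped between the mutants.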

How the data were processed

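Total RNA of mouse ESCs was sequenced by the authors, who deposited a table per mutant beside its control. The submitters' processing notes name TopHat2 2.1.1, RSEM, edgeR and the build GRCm38.p5. The estimated counts (expected counts) deposited by the authors are reads assigned to genes, without normalization, and they need not be whole. The 4 tables used here of 8 hold 18 of the 33 libraries. Some 72 further columns of values per sample were not used, and neither were the columns of the authors' fold changes and adjusted p-values.

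Expected counts were rounded to whole numbers, and 55227 of 55487 genes were matched to GENCODE M21 (GRCm38) for position and type. Genes were filtered with filterByExpr (minimum count 10), scaled by TMM and tested with edgeR 4.0.16 (limma 3.58.1, R 4.3.3) by estimateDisp, glmQLFit and glmQLFTest, on the libraries of the groups compared. Log2 fold changes are those of the fit, with edgeR's default prior count. Log-scale CPM for the correlations between libraries used a prior count of 2. A call needs a log2 fold change past 1 in size and, after Benjamini-Hochberg adjustment, a p under 0.05. CPM was scaled over the 18 libraries, whose totals ran from 19961367 to 25743149. A fold against a group with no counts was computed against a floor of 3 counts in each library, which averaged 0.14 CPM in set B, and covers counting error only. Exact permutation of 3 libraries against 3 allows no p under 0.1.

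The genes named are the HP1 genes, *Pou5f1*, *Sox2*, *Nanog*, *Setdb1*, *Ehmt1* and *Ehmt2*. To these were added the 12 largest rises and falls among called genes with a symbol, separated groups and at least 5 CPM in the higher group, and up to 4 called members of each gene list with the largest changes (with under 2 called, the 2 with the highest level). The result of 1 gene that this rule names is not reported here. The 5 largest estimates each way of the combined contrast were added under the same conditions. Other genes, among them further called members of a list, the multicopy families and *Tdgf1*, *Wiz*, *Adnp* and *Nr0b1*, were chosen after their values were seen. The comparison, the gene lists and the alternatives were chosen with earlier results of these data known. Lists are described by counts and medians, without a test of the list. Alternatives were RLE size factors, DESeq2 1.42.0, other filters, no fold threshold, set A as the control, a fit of 9 libraries, a replicate block, and each library left out. The steps were tested on simulated data with 200 genes changed by a log2 fold change of 2, and 100% were recovered in each of the 3 comparisons, with 2 unchanged genes called in Hp1β/γ Δ/Δ against set B. The changed genes were drawn from well-counted genes, and all genes shared a common dispersion. Recovery of genes with few counts in the control was therefore not tested.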

Additional observations from a re-analysis of the deposited data

Results flagged for a closer look

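Differences between mutants were tested directly in 2 comparisons. Hp1β/γ Δ/Δ ESCs departed from the summed effects of the single losses, with 1775 genes above that sum and 813 below it. They also differed from Hp1α/γ Δ/Δ ESCs, with 2830 genes higher and 1041 lower.

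Among genes whose 15 libraries each held 10 counts or more, the departures from the sum were largest, on the log2 scale, for *C78283* (5.51), *Ccdc158* (5.04), *Gm44660* (4.88), *Ltb* (4.87) and *Rpl37-ps1* (4.48) above it. Below it they were largest for *Nnat* (−3.81), *Scn3a* (−3.12), *Spry4* (−3.02), *Insm1* (−2.87) and *Dlgap3* (−2.83). For *C78283*, *Ccdc158* and *Ltb* the single mutants lay below set A while the double mutant lay above set B. *Rpl37-ps1*, a processed pseudogene whose reads may come from its parent gene, had 0.745 to 1.31 CPM in Hp1β Δ/Δ, 3.45 to 4.78 CPM in Hp1γ Δ/Δ and 14.4 to 16.1 CPM in the double mutant. *Spry4*, an inhibitor of receptor tyrosine kinase signalling, had 217 to 223 CPM in Hp1β Δ/Δ and 43.4 to 47.5 CPM in the double mutant, against 103 to 105 CPM (set A) and 119 to 131 CPM (set B). *Dlgap3* had 48.5 to 57 CPM in the single mutants and 12.3 to 14.1 CPM in the double mutant.

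Set A and set B differed in level for *Ccdc158* (4.08 to 5.86 CPM against 19.7 to 24.2 CPM) and *C78283* (2.29 to 3.58 CPM against 4.57 to 6.09 CPM), and the part of this in their departures was not tested. Groups of 3 libraries are too small for a test of single libraries that stand apart.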

How the results depend on the processing

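With RLE size factors, DESeq2, a 9-library fit or no filter, the number up-regulated in Hp1β/γ Δ/Δ ESCs was 1199, 1149, 1073 and 1761, and the number down-regulated 732, 690, 661 and 959. It moved further under the following settings, whose own construction (fewer or more genes admitted) sets the numbers except with set A. When every library had to hold 10 counts, 632 genes were up-regulated, and 1785 were higher than in Hp1α/γ Δ/Δ ESCs. With set A as the control, 1255 were down-regulated, and the cause was not tested. Without the fold threshold the numbers up- and down-regulated were 4224 and 4184, those above and below the summed single losses 3424 and 3551, and those higher and lower than in Hp1α/γ Δ/Δ ESCs 4294 and 3124.

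With 1 library left out at a time, 1228 to 1327 genes were up-regulated and 740 to 792 down-regulated. The contrast with the single losses gave 1614 to 1810 and 770 to 827 genes, and that with Hp1α/γ Δ/Δ ESCs 2573 to 3100 and 924 to 1127. A group of 2 is assumed to vary like the other groups.

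Replicate numbers in the labels are shared between the groups, but libraries of the same number did not deviate together. Their correlations were 0.042, 0.0146 and 0.017 between the double mutant and set B, where each library correlated best with its own number, −0.1 to 0.058 between the double mutant and Hp1α/γ Δ/Δ ESCs, and −0.061 to 0.044 between the other pairs of groups compared. A replicate block gave 1197 up-regulated and 736 down-regulated genes, 1738 and 790 in the contrast with the single losses, and 2755 and 962 against Hp1α/γ Δ/Δ ESCs.

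For 126 named genes, 1675 of 1721 values under the alternatives kept their direction and side of the threshold, 28 lost the call, 17 gained it and 1 reversed: *Ndufa4l2* had a log2 fold change of −1.44 against set B and 0.066 against set A. *Bnip3* lost its call there (−0.40), as did *Gstm1*, *Gstt1*, *Loxl1*, *Pcdhga9*, *Plk2*, *Sox4*, *Vmn1r47*, *Zfp978* and *Zfp986*. The 2-cell-like list had 27 of 27 genes up-regulated without a filter and 0 under the filter of 10 counts in all libraries, where none of its members could be tested. A gene with no count in set B has no measured fold, and the depth allows a lower bound at most.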

Other observations

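Of 16 tested genes of the Y chromosome, 5 were up-regulated and none down-regulated, beside 7.32% and 4.54% of all genes. These genes were chosen after their values were seen. Their median log2 fold change was 0.54, and 25% lay below 0. In Hp1α/γ Δ/Δ ESCs against set B the median of this chromosome was 0.45. *Usp9y*, a deubiquitinase gene, had 0.0951, 0 and 0.0878 CPM in set B and 6.93, 6.2 and 5.13 CPM in Hp1β/γ Δ/Δ ESCs. *Zfy1*, a zinc finger gene, rose from 6.66, 3.09 and 3.95 CPM to 35.8, 34.5 and 34.4 CPM (log2 fold change 2.94), and *Uba1y*, the Y copy of the ubiquitin-activating enzyme, from 9.99, 9.43 and 10.7 CPM to 73.6, 72.8 and 69.6 CPM (2.83). *Gm2098* (2.94) and *Gm28595* (1.02) were up-regulated as well. Genes without a call were *Ddx3y*, with a log2 fold change of 0.40, *Uty* (0.33), *Kdm5d* (0.67) and *Eif2s3y* (0.87). Hp1α/γ Δ/Δ ESCs had 20 to 36.8 CPM of *Zfy1* but at most 0.191 CPM of *Usp9y*.

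The genes *Clec2i*, *Ceacam2* and *Fthl17b*, named after their values were seen, had low levels in *wild-type* ESCs and were up-regulated. *Clec2i*, a lectin gene, had 0.285, 0.386 and 0.351 CPM in set B and 21.4, 19 and 19.8 CPM in Hp1β/γ Δ/Δ ESCs (log2 fold change 5.83). In the Hp1α/γ mutant it had 9.49 to 10.2 CPM. *Ceacam2*, a cell adhesion gene, rose to 10.6, 10 and 8.77 CPM (5.84) and stayed at 0.373 to 1.2 CPM in the single mutants and Hp1α/γ Δ/Δ ESCs. *Fthl17b*, an X-linked relative of ferritin heavy chain, rose to 11.8, 11.8 and 12 CPM (5.51). Among mitochondrially encoded genes *mt-Rnr2*, a ribosomal RNA, was called (1.33), and 4 RNAs without poly(A) tails that were tested had no call in either direction. In the *Rhox* cluster 2 of 3 tested genes fell, *Rhox6* (−2.11) and *Rhox9* (−1.94), beside 4.54% of all genes.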
